A study of Rattus norvegicus with 6 samples.

Results

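The genes described here make cholesterol, sense it, move it and store it. They were taken by gene symbol as 28 members of a table of 21797 genes, each member had 1 row, and all 28 passed the filter on low values that left 10781 genes for testing. The libraries came from rat BMSCs, bone marrow stromal cells grown from the femur and tibia of Sprague-Dawley rats 4 weeks old and used at passages 2 to 3. The labels give the animals as female and the study's methods as male, so the sex is not settled. Of the 6 libraries, 3 were from cultures given ginsenoside Rb1, a triterpenoid saponin of ginseng, at 20 μM for 24 h, and 3 were from cultures given DMSO, a solvent, as the control. No other agent or allele was named for either group. The sources used here do not say how many animals were pooled or whether the 3 libraries of a group were separate cultures, so the p-values measure only the spread between libraries, which may be technical.

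Cholesterol is built from acetyl-CoA. The mevalonate pathway turns acetyl-CoA into isopentenyl diphosphate, prenyl transferases join these units into farnesyl diphosphate, squalene is made from farnesyl diphosphate, and a series of enzymes in the endoplasmic reticulum closes the rings and removes methyl groups until cholesterol is reached. When sterols are low, the escort protein Scap carries the transcription factor Srebf2 to the Golgi, where it is cut and released to the nucleus. Many genes of the pathway are its targets. When sterols are high, Insig proteins hold Scap back. Cells also take up cholesterol with lipoproteins, export it from lysosomes through Npc2 and Npc1, and store the excess as esters made by Soat1. BMSCs can become osteoblasts or adipocytes, and some hydroxylated derivatives of cholesterol are known to promote the osteoblast fate.

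Values are given in FPKM, fragments scaled to transcript length and to library depth, so levels can be compared between genes. The authors' scaled fragment table gave back whole fragments for 99.2 to 99.4% of values, with totals of 8197154 to 14177065 per library. Rb1 replicate 1 was the shallowest and stood apart: its correlation over genes with the libraries of its own group averaged 0.972, against 0.980 to 0.984 for the others. The 13 mitochondrial genes took 18.1 to 24.8% of FPKM with Rb1 and 10.2 to 18.5% with DMSO. All 8 stromal markers were at 1 FPKM or more, with summed levels of 6286 to 8362 FPKM with Rb1 and 8522 to 9576 with DMSO. The 8 macrophage markers measured were also all at 1 FPKM or more. They summed to 3795 to 4155 FPKM with Rb1 against 3385 to 3418 with DMSO. Lyz2 made up most of that sum, at 3466 ± 230 FPKM with Rb1 and 2867 ± 27.7 with DMSO (mean ± SD). By value Lyz2 and Ptprc were higher with Rb1, and the other 6 macrophage markers were lower. Of 6 endothelial markers measured, 3 were at 1 FPKM or more and all 6 summed to 21.3 to 23.3 FPKM with Rb1 and 32.1 to 49.6 with DMSO, while the defining markers Cdh5, Kdr and Tek were below 1. Of 6 adipocyte markers, 4 were at 1 FPKM or more, and the levels of all 6 summed to 649.9 to 818.8 FPKM with Rb1 and 542.6 to 653.9 with DMSO. At an unadjusted p under 0.05 in limma, 1 stromal marker was higher with Rb1 and 3 were lower, 1 macrophage and 1 adipocyte marker were higher, and 3 endothelial markers were lower. The part of these cell types in the differences below was not tested, and in such bulk libraries fewer cells of a type and less RNA per cell cannot be told apart.

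The question put to the members was whether their transcripts differed between Rb1 and DMSO. No member passed the test across all genes: the smallest adjusted p was 0.117 (limma on log2(FPKM + 1), Benjamini-Hochberg adjustment over 10781 genes), and 2 genes in the whole table, 0.0186%, had an adjusted p under 0.05. At an unadjusted p under 0.05, 4 members were higher with Rb1 (Idi1, Hmgcs1, Nsdhl and Sc5d) and 8 were lower (Tm7sf2, Soat1, Scap, Srebf2, Mvd, Dhcr7, Mvk and Lss). These 12 were 42.9% of the members, beside 22.9% of all genes tested. The share was 14.3% beside 8.27% for higher values and 28.6% beside 14.6% for lower values. By value alone 12 members were higher and 16 lower. The 10781 genes leaned the same way, with 6363 lower against 4418 higher, so this split does not set the members apart. The members' log2 differences ran from -0.85 to 0.88 with -0.12 as the median, beside a median of -0.07 over all genes. In FPKM the groups did not overlap for 5 members that were higher and 8 that were lower, where 11.9 and 20.3% of all genes did so (32.3% in either direction). In recovered fragments scaled per library the counts were 8 and 9. The share over all genes was not computed on that scale, so these counts cannot be read as particular to the members. With 3 libraries against 3, such a separation gives an exact permutation p of 0.1, the smallest possible. Scaling each library to the same median FPKM moved the split at an unadjusted p under 0.05 to 5 higher and 5 lower, and that of all genes from 892 higher and 1575 lower to 1346 and 1017. The counts of 4 and 8 became 2 and 6 without DMSO replicate 1, 1 and 6 without DMSO replicate 2, and 3 and 5 without Rb1 replicate 3. Over all genes those fits gave, in the same order, 523 higher and 940 lower, 573 and 1069, and 739 and 1613.

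**Figure D1:**
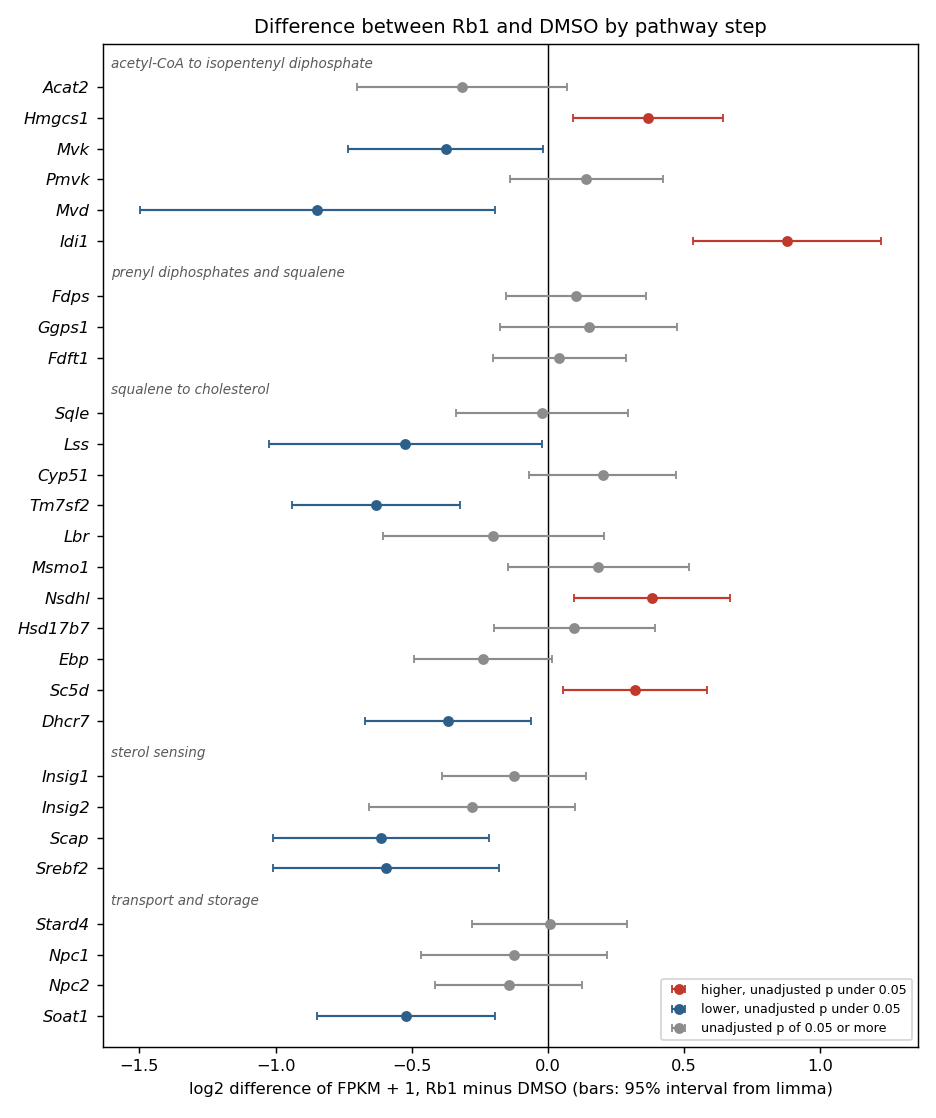
Points give the log2 difference of FPKM + 1 between 3 Rb1 and 3 DMSO libraries for the 28 members in pathway order, and bars the 95% interval from limma. Red marks the 4 members that were higher and blue the 8 that were lower at an unadjusted p under 0.05, grey the rest, and no member had an adjusted p under 0.05.

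To show the promoter sequence beside these differences, the 3 higher and the 3 lower members with the smallest p and an entry among the RefSeq promoters (build GRCr8) are printed as the 140 bases just before the start of transcription, 5′ to 3′ on the gene's strand. Capitals mark CCAAT, the core of the box bound by NF-Y, and GGGCGG, the core of the GC box bound by Sp1, on either strand (ATTGG and CCGCCC when reversed). The stretches of the higher members lie at chr17:66547525-66547664 on the minus strand for Idi1, chr2:53382164-53382303 on the plus strand for Hmgcs1 and chrX:155817220-155817359 on the plus strand for Nsdhl. Those of the lower members lie at chr1:212789542-212789681 on the minus strand for Tm7sf2, chr13:71147673-71147812 on the minus strand for Soat1 and chr8:119184298-119184437 on the plus strand for Scap.
Idi1: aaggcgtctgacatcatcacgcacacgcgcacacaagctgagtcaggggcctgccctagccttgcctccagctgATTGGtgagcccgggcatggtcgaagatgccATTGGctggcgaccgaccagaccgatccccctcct
Hmgcs1: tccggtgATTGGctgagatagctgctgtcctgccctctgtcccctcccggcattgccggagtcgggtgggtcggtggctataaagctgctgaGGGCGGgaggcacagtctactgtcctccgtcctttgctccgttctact
Nsdhl: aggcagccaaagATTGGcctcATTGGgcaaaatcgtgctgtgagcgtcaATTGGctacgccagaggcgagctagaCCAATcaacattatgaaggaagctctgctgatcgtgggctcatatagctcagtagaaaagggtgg
Tm7sf2: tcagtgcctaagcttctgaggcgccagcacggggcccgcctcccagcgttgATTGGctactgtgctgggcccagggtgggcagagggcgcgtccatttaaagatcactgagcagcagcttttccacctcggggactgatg
Soat1: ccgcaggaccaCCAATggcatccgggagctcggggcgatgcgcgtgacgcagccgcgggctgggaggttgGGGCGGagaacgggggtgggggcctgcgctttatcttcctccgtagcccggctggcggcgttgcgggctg
Scap: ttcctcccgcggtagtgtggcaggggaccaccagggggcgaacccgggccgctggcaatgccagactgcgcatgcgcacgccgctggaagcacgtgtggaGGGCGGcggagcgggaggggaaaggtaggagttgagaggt

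Srebf2 and NF-Y are known to act together at many cholesterol genes, so their motifs were counted in the windows from 250 bases before to 50 after the start, which 24 of the 28 members had. CCAAT was present in 19 of 24 members (79.2%), 12 of them with 2 or more copies, beside 37.5% of 33469 promoters and 38.0% of those of the genes tested. All 4 higher members and 6 of the 8 lower members held it. In the stretches printed above, Nsdhl carried 4 copies, Idi1 carried 2, and Hmgcs1, Tm7sf2 and Soat1 carried 1 each. GGGCGG was present in 20 of 24 members (83.3%), beside 33.1% of all promoters and 65.0% of those of the genes tested, in 2 of the 4 higher members and in 8 of the 8 lower ones. TCACNCCAC, a loose form of the sterol regulatory element bound by Srebf2, matched no member's window, 1.12% of all windows and 1.16% of those of the genes tested. The motifs were searched on both strands and do not contain each other, and a match or its lack is a description of the letters only.

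The members were spread over a wide range of levels. Npc2, the soluble lysosomal sterol carrier, was the most abundant at 658 ± 53.0 FPKM with Rb1 and 726 ± 37.3 with DMSO (SD, n = 3 for these and all means). It was followed by Fdps, Msmo1, Cyp51 and Insig1, the last 3 of which had overlapping ranges. Lbr was the least abundant, below Hsd17b7 and Stard4, and the ranges of these 3 also overlapped. The coefficient of variation, as the SD pooled over both groups divided by the mean of all 6 libraries, had a median of 11.1% over the members, beside 14.5% for all genes tested, and reached 39.6% for Mvd.

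**Figure D2:**
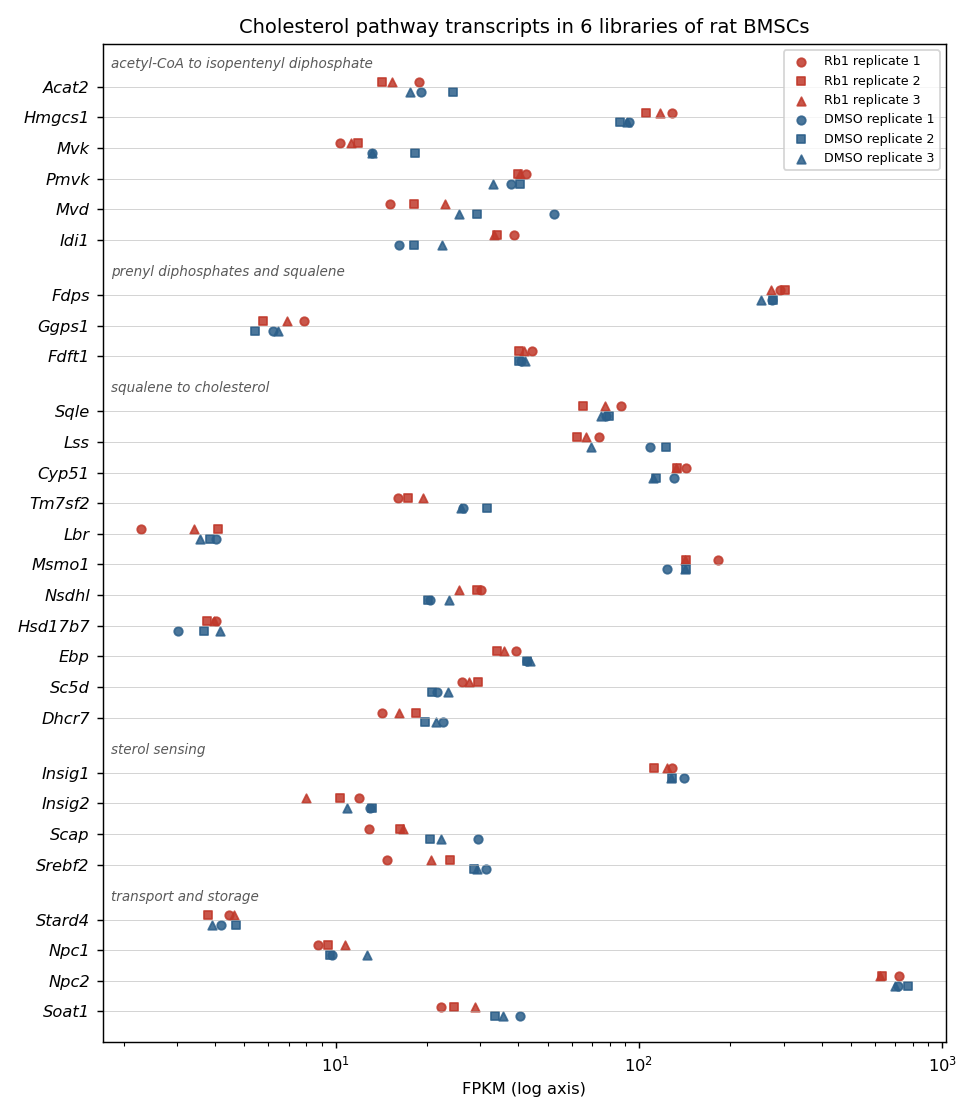
Each point is 1 library's FPKM on a log axis, red for Rb1 and blue for DMSO, with the shape giving the replicate, for the 28 members in pathway order. Levels run from 2.28 FPKM for Lbr to 768 for Npc2, and the red and blue points of Idi1 and Tm7sf2 stand apart in opposite directions.

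The 6 enzymes from acetyl-CoA to isopentenyl diphosphate divided into 3 that were higher and 3 that were lower by value, and the median difference was -0.09 on the log2 scale. Idi1, the isomerase that makes dimethylallyl diphosphate from isopentenyl diphosphate, stood at 38.8, 34.1 and 33.2 FPKM with Rb1 and 16.2, 18.1 and 22.4 with DMSO. Every Rb1 library was above every DMSO library. The mean was 1.87 times that of DMSO, the log2 difference was 0.88 ± 0.15 (SE here and after each log2 difference, 95% interval 0.53 to 1.22), and the adjusted p in limma was 0.117. Its unadjusted p was the smallest among the members, and stayed under 0.05 on leaving out any library. In the table Idi1 lies on chromosome 17 from 57976267 to 58050992 on the minus strand, in a build the sources used here do not settle, and its span crosses Wdr37 on the other strand. Wdr37 differed by 0.21 on the log2 scale (4.06 ± 0.176 FPKM with Rb1 and 3.38 ± 0.133 with DMSO, limma, adjusted p = 0.276).

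Hmgcs1, the cytosolic HMG-CoA synthase, had 128, 106 and 117 FPKM with Rb1 and 92.8, 86.9 and 91.4 with DMSO, again without overlap. The log2 difference was 0.37 ± 0.12 (95% interval 0.09 to 0.64, limma, adjusted p = 0.149), and the unadjusted p was above 0.05 without DMSO replicate 2, where the difference was 0.34. Mvd, which decarboxylates mevalonate diphosphate just before Idi1 acts, went the other way by value, with 15.1, 18.1 and 23.0 FPKM with Rb1 and 52.7, 29.3 and 25.4 with DMSO. DMSO replicate 1 was far above the other DMSO libraries, although the groups did not overlap. The log2 difference of -0.85 ± 0.28 (95% interval -1.50 to -0.20, limma, adjusted p = 0.154) was -0.54 without that library, and the unadjusted p was above 0.05 without Rb1 replicate 1, where the difference was -0.71.

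Mvk, the mevalonate kinase, was at 10.3, 11.8 and 11.3 FPKM with Rb1 and 13.2, 18.3 and 13.2 with DMSO. The groups did not overlap, but DMSO replicates 1 and 3 were close to the highest Rb1 library. Its log2 difference was -0.38 ± 0.15 (limma, adjusted p = 0.204). The unadjusted p was above 0.05 without Rb1 replicate 1, 2 or 3 (-0.33, -0.42 and -0.38 on the log2 scale) and without DMSO replicate 2 (-0.23). Acat2, the cytosolic acetyl-CoA acetyltransferase that opens the pathway, had 16.1 ± 2.42 FPKM with Rb1 and 20.3 ± 3.63 with DMSO (log2 difference -0.32, limma, adjusted p = 0.295), and its groups overlapped. The difference was -0.18 without DMSO replicate 2 and -0.43 without Rb1 replicate 1, the only omission that took its unadjusted p under 0.05. Pmvk, the phosphomevalonate kinase between Mvk and Mvd, had 40.9 ± 1.32 and 37.1 ± 3.92 FPKM (log2 difference 0.14, 95% interval -0.14 to 0.42). Of the 4 steps in a row from Mvk to Idi1, therefore, Mvk and Mvd were lower and Pmvk and Idi1 higher by value.

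None of the 3 enzymes that join isoprene units had an unadjusted p under 0.05, and all 3 were slightly higher by value, with a median of 0.10. Over all 10781 genes tested, 4418 were higher by value. Fdps, the farnesyl diphosphate synthase, was at 291, 302 and 272 FPKM with Rb1 and 275, 277 and 253 with DMSO, the second most abundant member, and its groups overlapped. Its log2 difference was 0.10 with a 95% interval of -0.15 to 0.36. Ggps1, which makes geranylgeranyl diphosphate for protein prenylation, had 6.84 ± 1.06 and 6.04 ± 0.549 FPKM (log2 difference 0.15, 95% interval -0.18 to 0.47). Fdft1, the squalene synthase, had 42.2 ± 1.97 and 41.0 ± 0.936 FPKM, with a 95% interval for the log2 difference of -0.20 to 0.28.

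The 11 enzymes from squalene to cholesterol were 5 higher and 6 lower by value, 2 and 3 of them at an unadjusted p under 0.05, with a median of -0.02. Tm7sf2, the sterol reductase of the endoplasmic reticulum that acts after Cyp51, was at 16.1, 17.3 and 19.5 FPKM with Rb1 and 26.3, 31.5 and 25.8 with DMSO. All Rb1 libraries were below all DMSO libraries, and the mean with DMSO was 1.58 times that with Rb1. The log2 difference was -0.63 ± 0.13 (95% interval -0.94 to -0.32, limma, adjusted p = 0.117), and the unadjusted p stayed under 0.05 on leaving out any library. In the table the locus, on chromosome 1 from 221425986 to 221440467 on the minus strand, is shared with Vps51 on the same strand, so how fragments were divided between the pair is uncertain. Vps51 was at 8.71 ± 0.849 FPKM with Rb1 and 17.7 ± 6.25 with DMSO (log2 difference -0.90, limma, adjusted p = 0.119). Lbr, the nuclear envelope protein that catalyses the same reduction as Tm7sf2, had 3.26 ± 0.921 and 3.82 ± 0.232 FPKM, with overlapping groups and 34 to 93 fragments per library (log2 difference -0.20, 95% interval -0.61 to 0.20).

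Nsdhl, a dehydrogenase of the demethylation at carbon C4, was at 30.1, 29.2 and 25.5 FPKM with Rb1 and 20.5, 20.2 and 23.6 with DMSO. The groups did not overlap. Its log2 difference was 0.38 ± 0.12 (95% interval 0.09 to 0.67, limma, adjusted p = 0.149), and the unadjusted p was above 0.05 without DMSO replicate 1 or 2 (0.35 and 0.34). The other enzymes of that demethylation were Msmo1, the methyl oxidase, at 156 ± 23.4 and 136 ± 10.8 FPKM, and Hsd17b7, the keto reductase, at 3.92 ± 0.126 and 3.62 ± 0.571. Both had overlapping groups, with 95% intervals for the log2 difference of -0.15 to 0.52 and -0.20 to 0.39.

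Sc5d, the sterol desaturase, was at 26.0, 29.5 and 27.5 FPKM with Rb1 and 21.6, 20.8 and 23.5 with DMSO. Dhcr7, the reductase that takes the product of Sc5d to cholesterol, was at 14.2, 18.4 and 16.2 FPKM with Rb1 and 22.5, 19.8 and 21.4 with DMSO. Neither gene's groups overlapped, and the signs of these successive steps were opposite. The log2 difference of Sc5d was 0.32 ± 0.11 (95% interval 0.06 to 0.58, limma, adjusted p = 0.167), and its unadjusted p was above 0.05 without Rb1 replicate 2 or 3 (0.27 and 0.32) or DMSO replicate 1 or 2 (0.31 and 0.28). That of Dhcr7 was -0.37 ± 0.13 (95% interval -0.67 to -0.06, limma, adjusted p = 0.169), and its unadjusted p was above 0.05 without Rb1 replicate 3 (-0.37) or DMSO replicate 1 or 3 (-0.33 and -0.36). Ebp, the sterol isomerase upstream of Sc5d, had 39.2, 33.9 and 35.9 FPKM with Rb1 and 42.7, 42.6 and 43.7 with DMSO, with no overlap and a log2 difference of -0.24 ± 0.11 (limma, adjusted p = 0.242). Without Rb1 replicate 1 it was -0.29, with an unadjusted p under 0.05.

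Cyp51, the lanosterol demethylase, also had groups that did not overlap, with 143, 133 and 132 FPKM with Rb1 and 130.2, 114 and 111 with DMSO. Its log2 difference of 0.20 ± 0.12 had an interval that included 0 (-0.07 to 0.47, limma, adjusted p = 0.328). Sqle, the squalene epoxidase and a control point of the pathway, was at 76.8 ± 11.1 FPKM with Rb1 and 77.5 ± 2.37 with DMSO (log2 difference -0.02, 95% interval -0.34 to 0.29). Its sign depended on the scaling, since it was 0.06 with libraries scaled to the same median.

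Lss, the lanosterol synthase that closes the sterol rings, was the member whose FPKM and fragments differed most from each other. Its FPKM was 74.0, 62.3 and 66.9 with Rb1 and 109, 123 and 69.4 with DMSO, and DMSO replicate 3 lay within the range of the Rb1 libraries. The log2 difference was -0.52 ± 0.21 (95% interval -1.02 to -0.02, limma, adjusted p = 0.205), and of the 6 fits that left out 1 library, the unadjusted p was under 0.05 only without DMSO replicate 3, at -0.77. The fits without Rb1 replicates 1 to 3 gave -0.59, -0.47 and -0.52, and those without DMSO replicates 1 and 2 gave -0.44 and -0.36. CPM values here are recovered fragments scaled to library totals adjusted by TMM (trimmed mean of M-values). In CPM, Lss stood at 31.2, 37.4 and 48.9 with Rb1 and 62.5, 66.8 and 60.6 with DMSO. On that scale the groups did not overlap, and limma-voom on the fragments gave a log2 difference of -0.70 ± 0.17 (SE, adjusted p = 0.0963). The effective length that links the measures, as the ratio of fragments to FPKM, varied 2.11-fold between libraries for Lss, and it was highest in DMSO replicate 3. Over all genes tested the median of this variation was 1.02-fold, 1.15% of genes varied by more than 1.5-fold, and Tm7sf2 varied 1.02-fold.

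**Figure D3:**
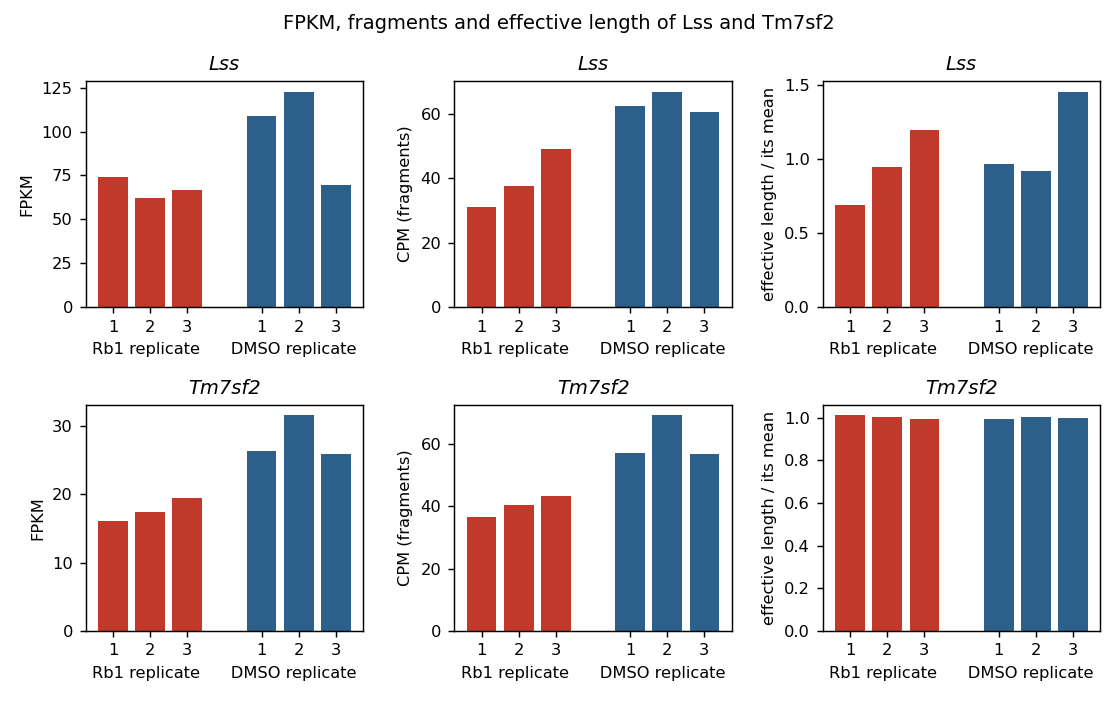
Bars give, for each Rb1 (red) and DMSO (blue) library, the FPKM, the CPM of recovered fragments and the effective length divided by its mean over libraries, for Lss (top) and Tm7sf2 (bottom). The effective length of Lss runs from 0.689 to 1.45 of its mean, so its FPKM and fragments order the libraries differently, while that of Tm7sf2 is level.

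All 4 sterol sensing members were lower with Rb1 by value, beside 6363 of the 10781 genes tested. Of the 4, 2 were lower at an unadjusted p under 0.05, where 14.6% of all genes tested were. The median of the 4 members was -0.44 on the log2 scale, beside -0.07 over all genes. Srebf2, the transcription factor of the pathway, was at 14.7, 23.8 and 20.6 FPKM with Rb1 and 31.4, 28.6 and 29.3 with DMSO. The groups did not overlap, and Rb1 replicate 1 was the lowest library. The log2 difference was -0.59 ± 0.18 (95% interval -1.01 to -0.18, limma, adjusted p = 0.135). It ranged from -0.74 to -0.41 on leaving out 1 library, with the smaller difference without Rb1 replicate 1, and the unadjusted p stayed under 0.05.

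Scap, the escort and sterol sensor of Srebf2, was at 12.9, 16.3 and 16.6 FPKM with Rb1 and 29.4, 20.5 and 22.2 with DMSO, also without overlap. Its log2 difference was -0.61 ± 0.17 (95% interval -1.01 to -0.22, limma, adjusted p = 0.126), and the unadjusted p stayed under 0.05 on leaving out any library. Insig1 and Insig2, which hold Scap in the endoplasmic reticulum, had overlapping groups. Insig1, itself a known target of Srebf2, was at 128, 112 and 124 FPKM with Rb1 and 141, 129 and 127 with DMSO (log2 difference -0.12, 95% interval -0.39 to 0.14). Insig2 was at 10.1 ± 1.96 FPKM with Rb1 and 12.3 ± 1.25 with DMSO, from 87 to 124 fragments per library (log2 difference -0.28, 95% interval -0.66 to 0.10). Without Rb1 replicate 1 the difference of Insig2 was -0.40, with an unadjusted p under 0.05, and without Rb1 replicate 3 it was -0.14.

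Of the 4 members for transport and storage, 1 had an unadjusted p under 0.05 (25.0%, beside 22.9% of all genes tested), and the median was -0.13. Soat1, the acyltransferase that makes cholesteryl esters for storage, was at 22.3, 24.5 and 28.9 FPKM with Rb1 and 40.6, 33.4 and 35.5 with DMSO. Every Rb1 library was below every DMSO library. The mean with DMSO was 1.45 times that with Rb1, and the log2 difference was -0.52 ± 0.14 (95% interval -0.85 to -0.19, limma, adjusted p = 0.121), with an unadjusted p under 0.05 on leaving out any library. The lysosomal export proteins differed less: Npc2 by -0.14 (95% interval -0.41 to 0.12) and the membrane protein Npc1 by -0.12 (95% interval -0.46 to 0.22), with overlapping groups. Npc1 was at 9.66 ± 1.02 FPKM with Rb1 and 10.7 ± 1.75 with DMSO. Stard4, a cytosolic sterol carrier, had 4.29 ± 0.448 and 4.26 ± 0.397 FPKM, and the 95% interval of its log2 difference was -0.28 to 0.29.

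The rest of the pathway, outside the members, was followed in lists by function. Of 11 tested genes of other synthesis steps and their regulation, 4 were lower (36.4%) and none higher by the unadjusted p. Over all genes tested 14.6% were lower and 8.27% higher. The median of the 11 genes was -0.14, beside -0.07 over all genes. Srebf1, the related factor with lipogenic targets, was at 5.82, 8.04 and 8.04 FPKM with Rb1 and 14.6, 14.3 and 12.3 with DMSO. Its groups did not overlap, and the log2 difference was -0.84 ± 0.15 (limma, adjusted p = 0.117). Slc25a1, the mitochondrial citrate carrier, differed by -0.49 (52.4 ± 6.30 against 73.9 ± 6.07 FPKM, limma, adjusted p = 0.122) and Aacs, the acetoacetyl-CoA synthetase, by -0.42 (15.4 ± 1.86 against 20.9 ± 1.87 FPKM, limma, adjusted p = 0.148).

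Among 12 genes of SREBP processing and sterol regulated degradation, 2 were lower (16.7%, beside 14.6% of all genes tested) and none higher by the unadjusted p. The median of these 12 genes was -0.15. Sec24d, a COPII coat protein, was at 28.4 ± 5.06 FPKM with Rb1 and 38.1 ± 3.60 with DMSO (log2 difference -0.42, limma, adjusted p = 0.182). The ubiquitin ligase Rnf139 had a log2 difference of 0.32 and an unadjusted p above 0.05, and it was 0.42 without Rb1 replicate 2, with that p under 0.05, and 0.19 without Rb1 replicate 1. The proteases that cut the SREBPs, Mbtps1 and Mbtps2, had log2 differences of -0.13 and 0.24 with overlapping groups. The branches that use isoprenoids for ubiquinone, dolichol and protein prenylation held 14 genes, of which only Coq2, a prenyltransferase of ubiquinone synthesis, had an unadjusted p under 0.05 (log2 difference -0.28, limma, adjusted p = 0.188). This 1 gene was 7.14% of the list, beside 22.9% of all genes tested, and the median of the list was -0.05. Rabggta had a log2 difference of -0.50, with DMSO replicate 1 at 21.7 FPKM against 10.8 and 10.7 in the other DMSO libraries, and without it the difference was -0.18. Pdss1, at -0.28, ranged from -0.44 without Rb1 replicate 1 to -0.14 without Rb1 replicate 2, and Dhdds was at -0.14.

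Of 18 tested genes for sterol transport and lipoprotein receptors, 1 was higher and 3 lower by the unadjusted p (22.2%), close to the share of all genes, with a median of -0.04. Lrp1, a large endocytic receptor, was at 82.7, 124 and 139.9 FPKM with Rb1 and 210.3, 185 and 206 with DMSO, with no overlap and a log2 difference of -0.82 ± 0.20 (limma, adjusted p = 0.118). Cav1, the caveolar protein, was the higher gene (167 ± 13.9 FPKM with Rb1 and 129 ± 12.5 with DMSO, log2 difference 0.38, limma, adjusted p = 0.156). Gramd1b, a sterol transfer protein, and Abcg1, a sterol exporter, had log2 differences of -0.39 and -0.29, both from levels under 3 FPKM. None of the 4 tested oxysterol enzymes had an unadjusted p under 0.05, where 22.9% of all genes tested did. Ch25h, which makes a hydroxycholesterol, was at 24.6, 48.7 and 19.6 FPKM with Rb1 and 37.9, 21.7 and 21.8 with DMSO, so 1 Rb1 library and 1 DMSO library were high. Hsd3b7 and Cyp27a1 had log2 differences of -0.25 and -0.16. Cyp7b1 was at 7.79, 3.20 and 4.97 FPKM with Rb1 and 4.04, 4.50 and 3.40 with DMSO, and its log2 difference of 0.28 was 0.01 without Rb1 replicate 1 and 0.55 without Rb1 replicate 2.

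The differences were recomputed under 20 other processing choices. The sign stayed the same in every alternative that could be run for 26 of the 28 members, with Sqle and Stard4, both close to 0, as the exceptions. For Idi1, Tm7sf2, Scap, Srebf2 and Soat1 the unadjusted p was under 0.05 in all 20. Only with array weights, which lower the influence of libraries that fit less well and called 800 of all genes, did members have an adjusted p under 0.05: Idi1 (0.0319), Tm7sf2 (0.0393) and Srebf2 (0.0477). Over all alternatives the adjusted p reached 0.346 for Idi1 and Tm7sf2 and 0.353 for Srebf2.

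**Figure D4:**
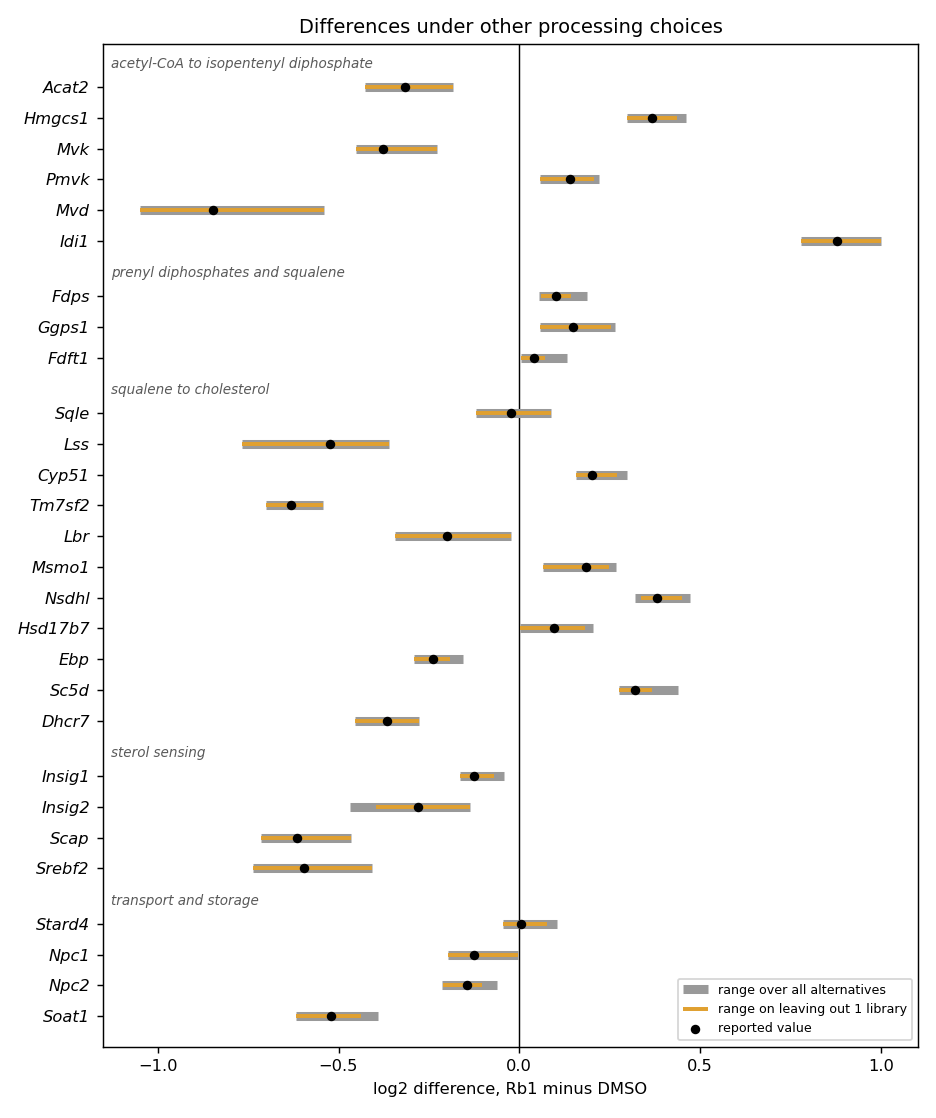
Black points give the reported log2 difference of each member, Rb1 minus DMSO, orange lines its range on leaving out 1 library and grey bars its range over all alternatives. The bars of Sqle and Stard4 cross 0, and that of Idi1 begins at 0.78.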

How the data were processed

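Total RNA was depleted of ribosomal RNA and sequenced from stranded libraries. CASAVA 1.8 and HISAT2 are listed in the submitters' notes on processing. How fragments were assigned to genes is not given in the labels or methods used here. The notes name the build hg19, while the rows are rat Ensembl genes. Per the file headers, the authors deposited FPKM and a fragment count per gene and library. The deposited counts were not whole, being multiplied by 1 factor per library, and were treated as a signal, with whole fragments recovered within a tolerance of 0.05. The deposited length column, the span of the locus, was not used, and 0 value columns were left unmapped. Of 22062 rows, those sharing a symbol (233 symbols) were summed. Genes with at least 1 FPKM in at least 3 libraries were fitted with limma 3.58.1 in R 4.3.3 on log2(FPKM + 1), with Benjamini-Hochberg adjustment over all of them, so folds of low genes are understated. The fit was tested on simulated data, where recovery was required only for changes larger than that of any member. An exact permutation test of 3 against 3 libraries cannot give a p under 0.1 and was not used for calls. Alternatives were pseudocounts of 0.1 and 0.5, filters, scalings, array weights, a replicate block, voom on fragments with TMM-adjusted library totals and leaving out each library. The members and lists were chosen with earlier results of these data known. All members were named, and from each other list up to 4 genes with the smallest p, with some genes not reported here. Proteases were named after their values were seen.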

Additional observations from a re-analysis of the deposited data

How the results depend on the processing

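Of 950 differences of 48 genes under 17 alternative settings and 3 more chosen after seeing the data (scaling without mitochondrial genes, a correction for transcript length and a minimum of 50 fragments), 933 kept their sign and their side of the threshold on the adjusted p, 11 changed sign and 6 passed that threshold. By the unadjusted p, 99 of the 950 lay on the other side of 0.05 from the reported value. Sqle changed sign to 0.0606 with scaling to the same median, 0.0335 with voom and 0.0629 with the length correction, and ranged from -0.12 to 0.0876 on leaving out 1 library. Ch25h was -0.0459 with array weights and ranged from -0.24 to 0.39 on leaving out 1 library, and Stard4 from -0.0439 to 0.0767. Leaving out 1 library gave 1 to 4 higher members and 5 to 8 lower ones by the unadjusted p. Over all genes those fits gave 523 to 954 higher and 940 to 1625 lower. Scaling to the same median gave 5 higher and 5 lower, quantile normalization 4 and 7, voom 5 and 7, and the length correction 5 and 9. All genes split, in the same order, into 1346 higher and 1017 lower, 1279 and 1158, 1223 and 1159, and 1323 and 1236. Array weights gave 4 and 12, beside 1242 and 1940 of all genes. With these weights 3 members had an adjusted p under 0.05, where limma without weights had 0. The cause was not tested.

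With the replicate number as a block, 3 members were higher and 7 lower, and no gene of the table had an adjusted p under 0.05, while 742 had a higher and 1340 a lower value with an unadjusted p under 0.05 in limma. Libraries with the same number had correlations of their deviations of 0.00, -0.04 and 0.16, and not every library correlated best with its own number, so the numbers were not taken as a pairing. A mean FPKM of at least 5 left 25 members, without Lbr, Hsd17b7 and Stard4, and the fragment minimum left 27, without Lbr. The planned quasi-likelihood count test was not run, because the deposited values are not raw counts. Lbr had 34 to 93 fragments per library, and the smallest difference that 3 libraries a group could detect was not computed.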
